A study of Mus musculus with 6 samples.

Results

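The Hox genes were examined in RNA-seq libraries of primary mouse uterine stromal cells, which are the fibroblast-like cells beneath the uterine epithelium. Every gene of the count table with a symbol made of Hox, a cluster letter from a to d and a number was taken, which gave 39 genes of 54232. The genes lie in 4 clusters, with 11 in HoxA, 10 in HoxB, 9 in HoxC and 9 in HoxD. Pbrm1 encodes a subunit of the SWI/SNF chromatin remodeler, and the comparison asked what its loss does to gene expression in these cells. The Pbrm1 cKO group (3 libraries) came from Pbrm1 fl/fl females that carried 1 PR-IRES-cre allele, so that Cre was made wherever the progesterone receptor gene is active, uterine epithelium and muscle included. The 3 control libraries are labelled WT, whereas the study describes its controls as floxed littermates without Cre. All cells were taken on day 4 of pseudopregnancy (the labels write pregnancy) from mice 8 to 12 weeks old, and were plated for 4 hours and kept in fresh medium for 2 hours before RNA was extracted. Preparations of both groups pooled 5 to 10 uterine horns, so a library is not 1 animal, and p-values measure the spread between these preparations.

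Hox genes encode homeodomain transcription factors that give cells their position along the body axis, and within a cluster the order of the genes follows the order of their expression domains. Along the female reproductive tract the genes at the 5′ end of HoxA are known for successive domains, with Hoxa9 in the oviduct, Hoxa10 in the uterus, Hoxa11 in the uterus and cervix and Hoxa13 in the vagina. In the uterine stroma Hoxa10 and Hoxa11 stay active in the adult, where both are needed for implantation and for decidualization, the change of stromal cells into the maternal bed of the embryo.

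Total counts ranged from 13253575 to 18338667 per library. Pbrm1 was lower in each Pbrm1 cKO library (396.6 to 458.6 normalized counts) than in each WT library (1354 to 1677), with a log2 fold change of -1.76 (DESeq2 adjusted p = 5.19e-40). The stromal markers Vim and Pdgfra were abundant in all 6 libraries, Vim at 27270 to 36870 and Pdgfra at 13920 to 17880 normalized counts. WT replicate 1 stood apart from the other WT libraries, with the fewest counts of Epcam (67.34, epithelial), Pecam1 (136.8, endothelial) and Ptprc (172.1, leukocyte) of all 6 libraries. Markers of leukocytes moved with the groups. For the counts that follow, 15.9% of all genes tested were higher in Pbrm1 cKO and 15.2% were lower. Of the 12 leukocyte markers 11 were tested and 10 were higher in Pbrm1 cKO, and their summed normalized counts were 3846.8 to 8377.4 in WT and 35079 to 36592 in Pbrm1 cKO. Of the 12 stromal markers 7 were lower and 1 was higher, with sums of 119180 to 142060 in WT and 91569 to 98748 in Pbrm1 cKO. Of 8 endothelial markers 3 were lower, Cdh5 among them, with sums of 1584 to 4630.2 in WT and 1273.7 to 1427.8 in Pbrm1 cKO. Of 11 tested epithelial markers 3 were higher, and of 8 smooth muscle markers 3 were lower, Acta2 among them and Des, which is also on the stromal list. The sums of the epithelial markers (1976.3 to 3531.5 in WT and 3517.1 to 3723.4 in Pbrm1 cKO) and of the smooth muscle markers (55387 to 59838 and 53441 to 55526) overlapped between the groups, and Tagln, the most abundant smooth muscle marker, had a log2 fold change of 0.19 and was not called. The part of these shifts in the Hox results was not tested, and in bulk RNA fewer cells of a type and less RNA per cell cannot be told apart.

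Expression of the Hox genes was concentrated in 7 members, all toward the 5′ ends of HoxA and HoxD. Hoxa9, Hoxa10, Hoxa11, Hoxd8, Hoxd9, Hoxd10 and Hoxd11 each had a mean of at least 100 normalized counts, and together they held 96.26% to 98.15% of all Hox counts in every library. Levels between genes were compared as FPKM, that is, counts per kilobase of exon and scaled to the total of the library. In WT, Hoxd10 (50.1 ± 9.32 FPKM, SD, n = 3) and Hoxa11 (44.7 to 57.2 FPKM) had the highest levels and did not differ beyond their spread. Hoxa10 followed at 34.3 ± 4.23, Hoxd8 at 23.5 ± 3.57 and Hoxd9 at 9.36 ± 1.82. Hoxd11 (7.34 ± 1.23) had a range that overlapped that of Hoxd9, and Hoxa9 closed the group at 2.66 ± 0.438. The other 32 members had mean levels of at most 1.14 in WT and 0.650 in Pbrm1 cKO, both reached by Hoxc11. The rank order of the first 8 genes was the same in both groups, although in Pbrm1 cKO the level of Hoxd10 (41.6 ± 0.915) was above that of Hoxa11 (31.8 ± 0.862) by more than their spread.

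**Figure D1:**
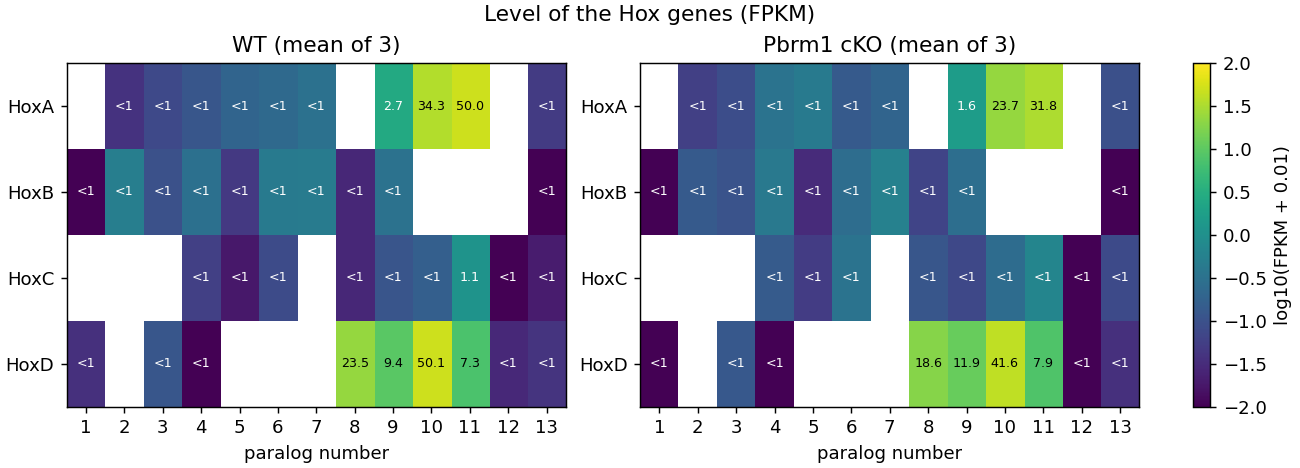
Mean level of 38 Hox genes in WT (left) and Pbrm1 cKO (right), arranged by cluster (rows) and paralog number (columns), on a log10 colour scale of FPKM; blank squares are positions with no gene or a gene not shown. Levels above 1 are confined to Hoxa9 to Hoxa11, Hoxd8 to Hoxd11 and, in WT, Hoxc11 (1.14).

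The silent members were spread over all 4 clusters. Hoxb1, Hoxb13, Hoxc12 and Hoxd4 had no count in any library, and Hoxa2, Hoxa6, Hoxb5, Hoxb8, Hoxc5, Hoxd1, Hoxd12 and Hoxd13 had at most 3 counts in each, so these 12 were not distinguishable from 0 at this depth (3 counts are 0.164 to 0.226 CPM, for counting error only). The absence of counts for Hoxd4 cannot be read, as 100% of its exon bases are also annotated to another gene on the same strand and such reads are left out of the counting. The same holds in part for Hoxd3 (62.35% shared), Hoxa2 (15.04%), Hoxd11 (10.8%), Hoxc10 (8.7%), Hoxa3 (8.01%), Hoxd10 (5.73%), Hoxc5 (5.37%) and Hoxa9 (1.52%). The vaginal gene Hoxa13 had 0 to 3 counts in the WT libraries and 2 to 4 in the Pbrm1 cKO libraries.

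Of the 39 members, 24 passed the filter on low counts. In the comparison of Pbrm1 cKO with WT, 5 of them were lower and 1 was higher (DESeq2, adjusted p below 0.05). Over all 17474 genes tested, 31.1% were called, 15.9% higher and 15.2% lower, so 6 of 24 Hox genes (25.0%) is not above the background. The median log2 fold change of the 24 was 0.09 beside -0.00074 for all genes tested, but its sign is set by members with few counts, and it was -0.36 over the 7 abundant members. Among the 7 abundant members 4 were lower and none was higher, beside 19.6% lower and 22.1% higher of the 9586 genes with as high a mean. In 6 of the 7 the groups did not overlap, as in 57.2% of those genes.

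In HoxA, the 3 abundant genes were all lower in Pbrm1 cKO. Hoxa10, the gene required for stromal proliferation and decidualization, had 1900, 1546 and 1530 normalized counts in WT (in the order of the replicate numbers throughout) against 1079, 1143 and 1163 in Pbrm1 cKO. The highest Pbrm1 cKO library was thus below the lowest WT library. The log2 fold change was -0.56 ± 0.117 (SE), with an adjusted p of 2.16e-05 by DESeq2.

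Hoxa11, whose loss in mice impairs uterine glands and decidualization, had 1938, 1504 and 1625 normalized counts in WT against 1033, 1079 and 1072 in Pbrm1 cKO. The groups did not overlap, and the Pbrm1 cKO libraries lay within a narrow range. The log2 fold change was -0.67 ± 0.119 (DESeq2 adjusted p = 2.61e-07). Hoxa9, a gene best known in the oviduct and in blood progenitors, was far less abundant, with 257.6, 214.2 and 184.8 normalized counts in WT against 132.2, 134.2 and 134.2 in Pbrm1 cKO. All 3 Pbrm1 cKO libraries were below all WT libraries here too, and the log2 fold change was -0.71 ± 0.186 (DESeq2 adjusted p = 0.000812).

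WT replicate 1 had the highest value of the WT group for each of the 7 abundant members. Without it, the log2 fold changes were -0.45 for Hoxa10, -0.56 for Hoxa11 and -0.58 for Hoxa9, and all 3 calls held (DESeq2 adjusted p of 1.94e-05, 8.67e-08 and 0.0117). With Pbrm1 cKO replicate 2 left out as well, Hoxa9 lost its call (-0.58, DESeq2 adjusted p = 0.098). The calls held with TMM, upper-quartile and total-count scaling (adjusted p of at most 7.86e-05 for Hoxa10, 1.88e-06 for Hoxa11 and 0.00124 for Hoxa9). Size factors were also taken from the 12 stromal markers alone, chosen after the data were seen. The median log2 fold change of tested genes with a mean of at least 10 counts then moved up by 0.395. Under this scaling, with the shift not subtracted, Hoxa10 was at -0.16, Hoxa11 at -0.27 and Hoxa9 at -0.32. None of the 3 passed the threshold (DESeq2 adjusted p of 0.304, 0.061 and 0.162). A change of size factors moves every gene by about the same amount. The distance of these 3 genes below that median was thus fixed in advance and tests nothing.

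**Figure D2:**
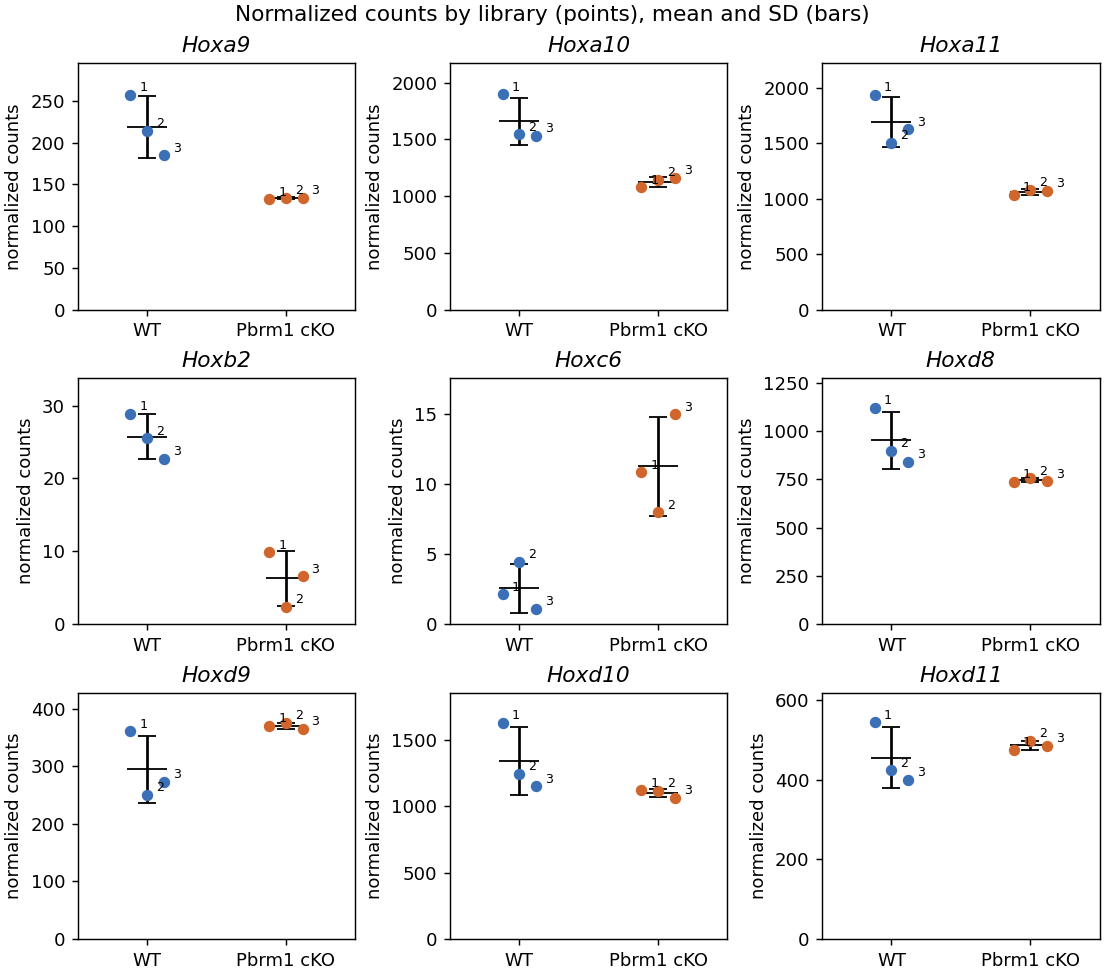
Normalized counts of the 7 abundant Hox genes and of Hoxb2 and Hoxc6 in each library (points, numbered by replicate), with the group mean (line) and SD (bars), n = 3 per group, each axis starting at 0. The Pbrm1 cKO libraries lie below all WT libraries for Hoxa9, Hoxa10, Hoxa11, Hoxb2, Hoxd8 and Hoxd10, above them for Hoxc6 and Hoxd9, and within their range for Hoxd11. With stromal-marker size factors the log2 fold changes of Hoxd8 and Hoxd10 are 0.04 and 0.11.

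The HoxA cluster lies on the reverse strand of chr6 (GRCm38/mm10), with Hoxa9 at chr6:52223100-52231089, Hoxa10 at chr6:52231197-52240854 and Hoxa11 at chr6:52242106-52245810. The promoters of these genes are shown because the 3 neighbours were lower together, with those of Hoxd9 and Hoxd10, which were not called, for comparison. Each is a RefSeq window of GRCm38.p6 from 250 bases before to 50 bases after an annotated start, written 5′ to 3′ on the strand of the gene. Capitals mark every copy, on either strand, of TATAAA (a common core promoter element), AGAACA (the half-site bound by the progesterone, androgen and glucocorticoid receptors) and TTTATG (a sequence bound by posterior Hox proteins). A copy on the opposite strand reads TGTTCT in the Hoxa9 window and TTTATA in the Hoxa10 window. Both windows that RefSeq gives for Hoxa10 are shown. The Hoxa9 window and the first Hoxa10 window belong to starts inside the gene span of the count table.
Hoxa9, chr6:52227321-52227620, reverse strand: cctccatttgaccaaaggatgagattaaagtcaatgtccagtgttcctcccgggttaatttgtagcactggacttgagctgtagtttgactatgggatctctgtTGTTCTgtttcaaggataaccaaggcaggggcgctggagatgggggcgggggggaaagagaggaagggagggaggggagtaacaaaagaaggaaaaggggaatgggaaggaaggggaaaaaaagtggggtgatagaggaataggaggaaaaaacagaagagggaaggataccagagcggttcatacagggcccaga
Hoxa10, chr6:52234890-52235189, reverse strand: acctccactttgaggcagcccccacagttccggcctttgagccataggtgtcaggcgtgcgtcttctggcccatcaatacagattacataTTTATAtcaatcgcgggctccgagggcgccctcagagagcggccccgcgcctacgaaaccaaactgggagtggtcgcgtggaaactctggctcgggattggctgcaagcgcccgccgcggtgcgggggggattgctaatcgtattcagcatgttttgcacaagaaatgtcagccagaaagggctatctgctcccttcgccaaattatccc
Hoxa10, chr6:52240805-52241104, reverse strand: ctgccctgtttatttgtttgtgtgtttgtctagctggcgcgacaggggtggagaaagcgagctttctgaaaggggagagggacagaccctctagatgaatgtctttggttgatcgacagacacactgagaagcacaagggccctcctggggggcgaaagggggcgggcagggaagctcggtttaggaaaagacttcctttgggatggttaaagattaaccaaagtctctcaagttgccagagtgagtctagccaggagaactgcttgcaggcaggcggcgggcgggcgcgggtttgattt
Hoxa11, chr6:52245761-52246060, reverse strand: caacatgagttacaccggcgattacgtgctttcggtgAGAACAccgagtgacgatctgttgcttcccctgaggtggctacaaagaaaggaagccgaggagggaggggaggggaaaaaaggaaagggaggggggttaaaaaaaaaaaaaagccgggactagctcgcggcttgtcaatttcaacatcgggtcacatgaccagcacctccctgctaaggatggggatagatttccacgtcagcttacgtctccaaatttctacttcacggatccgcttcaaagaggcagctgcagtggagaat
Hoxd9, chr2:74697513-74697812, forward strand: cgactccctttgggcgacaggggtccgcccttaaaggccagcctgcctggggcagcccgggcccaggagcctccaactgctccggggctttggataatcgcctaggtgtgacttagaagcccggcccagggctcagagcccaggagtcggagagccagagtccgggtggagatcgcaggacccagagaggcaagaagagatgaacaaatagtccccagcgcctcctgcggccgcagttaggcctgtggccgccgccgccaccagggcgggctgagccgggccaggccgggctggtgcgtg
Hoxd10, chr2:74691641-74691940, forward strand: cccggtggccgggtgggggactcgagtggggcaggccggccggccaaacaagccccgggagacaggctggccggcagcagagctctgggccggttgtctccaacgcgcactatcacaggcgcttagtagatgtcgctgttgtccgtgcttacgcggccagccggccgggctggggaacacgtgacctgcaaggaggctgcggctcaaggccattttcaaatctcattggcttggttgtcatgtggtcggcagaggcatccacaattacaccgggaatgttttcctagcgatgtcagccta

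The Hoxa9 and Hoxa11 windows each held 1 copy of AGAACA, which starts 146 bases before the start used for the Hoxa9 window and 213 bases before that of the Hoxa11 window. These were the only 2 of 24 windows, from 22 of the 39 Hox genes, that held it. AGAACA was present in 19.0% of all 32851 promoter windows, TATAAA in 13.6% and TTTATG in 11.9%. Among the 24 Hox windows, AGAACA was in 8.33%, TATAAA in 4 (16.7%) and TTTATG in 5 (20.8%). TATAAA stood 160 bases before the start in the first Hoxa10 window, and neither the other Hoxa10 window nor those of Hoxd9 and Hoxd10 held any of the 3 sequences. CpG dinucleotides numbered 4 in the Hoxa9 window, 21 and 12 in the Hoxa10 windows, 15 for Hoxa11, 20 for Hoxd9 and 22 for Hoxd10, beside a median of 14.5 over the Hox windows and 7 over all windows. These matches describe letters in the windows, and binding was not measured here.

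In HoxD the abundant genes, which lie on the forward strand within chr2:74668310-74765142, did not move as 1 block. Hoxd8 had 1119, 897.8 and 839.9 normalized counts in WT against 737, 755.9 and 739.4 in Pbrm1 cKO. All Pbrm1 cKO libraries were below all WT libraries. The log2 fold change was -0.36 ± 0.132 (DESeq2 adjusted p = 0.025), but 0.04 with stromal-marker size factors. The call was lost without WT replicate 1 (-0.22, adjusted p = 0.0914 by DESeq2) and without Pbrm1 cKO replicate 1, 2 or 3 (adjusted p of 0.122, 0.0998 and 0.108). A correction for gene length also ended the call (-0.31, DESeq2 adjusted p = 0.0523).

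Hoxd9, the neighbour of Hoxd8, had 361.3, 250.8 and 273.5 normalized counts in WT against 370.9, 375.5 and 365 in Pbrm1 cKO. Each Pbrm1 cKO library was above each WT library, though WT replicate 1 was nearly as high. The log2 fold change of 0.33 ± 0.164 did not pass the threshold (DESeq2 adjusted p = 0.12). It did by limma voom (0.35, adjusted p = 0.0462) and without WT replicate 1 (0.50, DESeq2 adjusted p = 0.00334). With stromal-marker size factors it was 0.72 and passed the threshold (DESeq2 adjusted p = 6.65e-05). Of that value, 0.395 is the median shift of tested genes with a mean of at least 10 counts.

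Hoxd10, which shares its paralog number with Hoxa10, had 1632, 1245 and 1153 normalized counts in WT against 1121, 1119 and 1063 in Pbrm1 cKO. The groups did not overlap but lay close together. Its log2 fold change of -0.29 ± 0.14 was not called (DESeq2 adjusted p = 0.109), and it was -0.39 with an adjusted p of 0.0125 without WT replicate 3, -0.34 with an adjusted p of 0.0498 with upper-quartile factors, -0.12 with an adjusted p of 0.364 without WT replicate 1, and 0.11 with stromal-marker size factors. Hoxd11, the paralog of Hoxa11, had 545.1, 424 and 400 normalized counts in WT against 476.5, 498.6 and 485.1 in Pbrm1 cKO. The Pbrm1 cKO values fell inside the WT range, and the log2 fold change was 0.09 with a 95% interval of -0.20 to 0.38 (DESeq2 adjusted p = 0.705). With stromal-marker size factors it was 0.49 and passed the threshold (adjusted p = 0.0031 by DESeq2), but the median shift of 0.395 makes up most of that value.

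**Figure D3:**
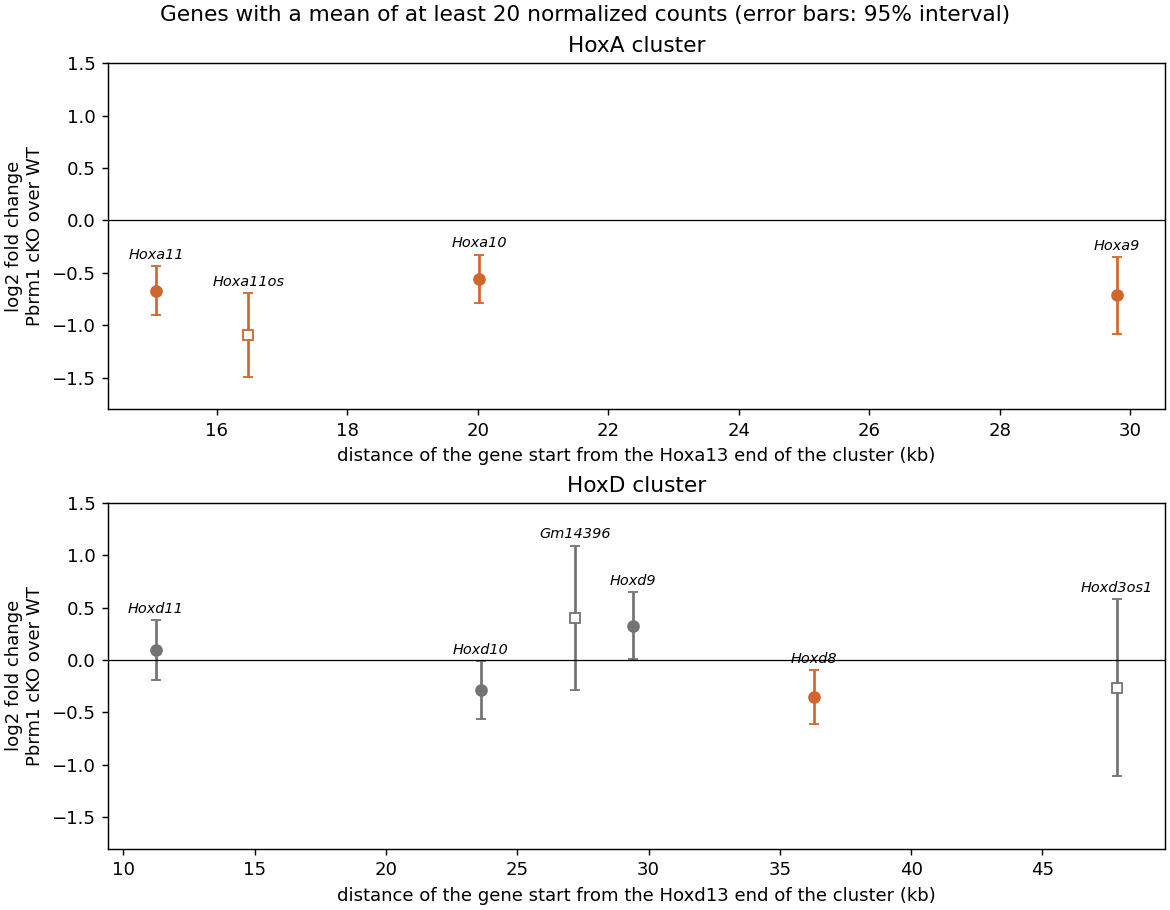
Log2 fold change (Pbrm1 cKO over WT, DESeq2) with its 95% interval against the distance of the gene start from the paralog 13 end of the HoxA (top) and HoxD (bottom) clusters, in kb, for genes with a mean of at least 20 normalized counts; filled circles are Hox genes, open squares other genes of the cluster, and orange marks genes called lower. Hoxa11, Hoxa11os, Hoxa10 and Hoxa9, from 15.1 to 29.8 kb, are all lower, whereas the HoxD genes lie on both sides of 0 (with stromal-marker size factors Hoxd8 moves to 0.04 and Hoxd10 to 0.11).

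Because both clusters are expressed in these cells, the counts of paralogs were set against each other within each library, which needs no scaling between libraries. These ratios were chosen after the values were seen and are given without a test. The ratio of Hoxa9 to Hoxd9 counts was 0.713, 0.854 and 0.676 in WT and 0.356, 0.357 and 0.368 in Pbrm1 cKO. That of Hoxa11 to Hoxd11 was 3.56, 3.55 and 4.06 in WT and 2.17, 2.17 and 2.21 in Pbrm1 cKO. In both pairs the groups were far apart relative to their spread, and WT replicate 1 did not stand out. The ratio of Hoxa10 to Hoxd10 differed less, at 1.16, 1.24 and 1.33 in WT and 0.963, 1.02 and 1.09 in Pbrm1 cKO. On the log2 scale the differences were -1.05, -0.77 and -0.28 for paralogs 9, 11 and 10. Leaving out each library in turn gave -1.11 to -0.95, -0.80 to -0.70 and -0.33 to -0.23. As a share of all Hox counts, HoxA held 53.2% ± 1.30 in WT and 45.6% ± 1.02 in Pbrm1 cKO, and HoxD held 44.9% ± 1.5 and 52.2% ± 1.07 (SD, n = 3). The summed normalized counts in WT and Pbrm1 cKO were 3601 ± 468 and 2367 ± 80.2 for HoxA, without overlap, and 3057 ± 532 and 2710 ± 49.9 for HoxD, with overlap.

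**Figure D4:**
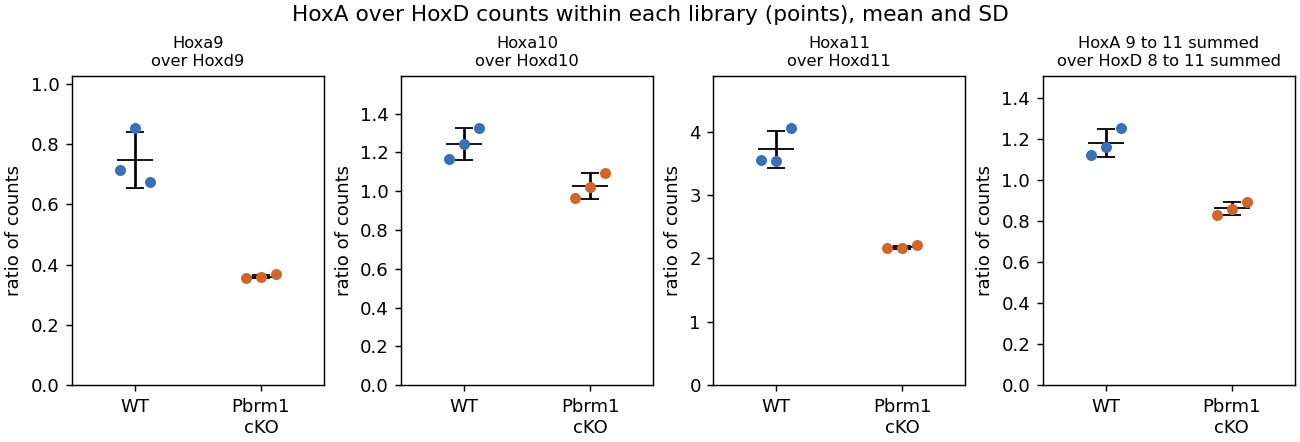
Ratio of HoxA to HoxD counts within each library (points) for paralogs 9, 10 and 11 and for Hoxa9 to Hoxa11 summed over Hoxd8 to Hoxd11 summed, with the group mean (line) and SD (bars), n = 3 per group, axes starting at 0. In all 4 panels the 3 Pbrm1 cKO libraries lie below the 3 WT libraries, and the summed ratio is 1.18 ± 0.0681 in WT and 0.860 ± 0.0317 in Pbrm1 cKO.

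Outside these 7 genes, 17 members with low counts were tested, of which 1 was lower and 1 was higher. Over all genes tested 15.2% were lower and 15.9% higher, so these counts are not above the background. Hoxb2, an anterior gene known for its role in the hindbrain, had 28.86, 25.53 and 22.7 normalized counts in WT against 9.866, 2.397 and 6.568 in Pbrm1 cKO. The groups were well apart, and its log2 fold change of -2.06 ± 0.587 was the lowest of the tested members (DESeq2 adjusted p = 0.00241). Its call held without each library in turn (adjusted p of at most 0.0388) and was lost when WT replicate 1 and Pbrm1 cKO replicate 2 were both left out (-1.55, adjusted p = 0.158 by DESeq2). Its level was 0.499 FPKM in WT and 0.124 in Pbrm1 cKO, below that of all 7 abundant genes.

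Hoxc6, a gene of the trunk domain, had raw counts of 2, 4 and 1 in the WT libraries against 11, 10 and 16 in the Pbrm1 cKO libraries. The groups did not overlap, and the log2 fold change was 2.15 ± 0.879 (DESeq2 adjusted p = 0.0476). With so few counts the call was lost without WT replicate 1, 2 or 3 or Pbrm1 cKO replicate 1 or 2 (adjusted p of 0.103, 0.0521, 0.155, 0.139 and 0.0908 by DESeq2), and without Pbrm1 cKO replicate 3 the gene was filtered out, so it held in none of the 6. Hoxc11, the paralog of Hoxa11 and Hoxd11, had raw counts of 31, 33 and 30 in the WT libraries against 23, 20 and 20 in the Pbrm1 cKO libraries. Its log2 fold change of -0.84 ± 0.392 was not called by DESeq2 (adjusted p = 0.0916) but was by edgeR's quasi-likelihood test (adjusted p = 0.0182) and limma voom (adjusted p = 0.0282).

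The 15 tested members that were neither abundant nor called had at most 33 counts in any library, and 10 of them had a log2 fold change above 0 and 5 below. Among them were Hoxa5, Hoxa7, Hoxb3, Hoxb4, Hoxb6, Hoxb7, Hoxb9, Hoxc9, Hoxc10, Hoxc11 and Hoxd3. Hoxa5, for example, had raw counts of 7, 2 and 5 in the WT libraries against 8, 12 and 19 in the Pbrm1 cKO libraries, with no overlap and no call (log2 fold change 1.22, 95% interval -0.28 to 2.72). The 3 members filtered out although a library had more than 3 counts were Hoxa13, Hoxc8 and Hoxc13. Hoxc8 had 13 counts in Pbrm1 cKO replicate 3 and at most 2 in any other library.

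By position in the cluster, 1 of 5 tested anterior genes (paralogs 1 to 3), 1 of 9 central genes (4 to 8) and 3 of 10 posterior genes (9 to 13) were lower, beside 15.2% of all genes tested, and 1 central gene (Hoxc6) was higher. No test was made between these classes. By cluster, 3 of 8 tested HoxA genes, 1 of 6 HoxB genes, none of 5 HoxC genes and 1 of 5 HoxD genes were lower.

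The clusters also hold 47 genes that are not Hox genes, mostly antisense and other noncoding transcripts. Of these, 28 had counts, 9 were tested, none was higher and 1 was lower, beside 15.9% higher and 15.2% lower over all genes tested. The lower gene was Hoxa11os (chr6:52244393-52249799, forward strand), a noncoding gene transcribed from the strand opposite Hoxa11. Hoxa11os had 339.9, 251.9 and 256.2 normalized counts in WT against 107.5, 153.4 and 136.1 in Pbrm1 cKO. All Pbrm1 cKO libraries were below all WT libraries, and the log2 fold change was -1.09 ± 0.201 (DESeq2 adjusted p = 7.63e-07). It overlaps 800 of the 2287 exon bases of Hoxa11 (34.98%) on the other strand, and reads were assigned by strand. Its call held without each library in turn and with stromal-marker size factors (-0.69, adjusted p = 0.00262 by DESeq2).

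Outside the clusters, 26 protein-coding genes lie within 300 kb of their ends, and 18 of them were tested. Here 8 were higher and 1 was lower, beside 15.9% higher and 15.2% lower over all genes tested. Skap2, an adaptor protein gene beside HoxA that is abundant in leukocytes, had 78.03, 135.4 and 162.1 normalized counts in WT against 464.7, 411.5 and 458.8 in Pbrm1 cKO, a log2 fold change of 1.83 (DESeq2 adjusted p = 1.28e-14). It thus moved opposite to the HoxA genes, in libraries whose leukocyte markers were higher, and the link between these was not tested. Beside HoxC, Zfp385a (1.11), a zinc finger gene, Hnrnpa1 (0.64), an RNA-binding protein gene, and Atf7 (0.55), a transcription factor gene, were higher. Evx1 and Evx2, the homeobox genes at the 5′ ends of HoxA and HoxD, had 1 count in all and none, respectively.

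Hox proteins bind DNA together with TALE homeodomain partners of the Pbx, Meis and Pknox families. Of 9 such genes 8 were tested, 3 were higher and 3 lower, where 31.1% of all genes tested were called in either direction. Meis3 had 295.1 to 425.4 normalized counts in WT and 220.5 to 248.5 in Pbrm1 cKO (log2 fold change -0.57, DESeq2 adjusted p = 0.00522). Pknox1 (0.85) and Meis2 (0.63) were higher. Of 12 genes of the MLL and Polycomb complexes, which keep Hox genes active and silent respectively, 2 were higher and 3 lower. Kmt2a, the MLL methyltransferase, had 494.9 to 571.6 normalized counts in WT and 1077 to 1144 in Pbrm1 cKO, a log2 fold change of 1.04 (DESeq2 adjusted p = 6.72e-20), and Kmt2b rose by 0.53. Cbx2, a Polycomb protein gene, fell by 0.76, a call that was lost without Pbrm1 cKO replicate 2 (-0.69, DESeq2 adjusted p = 0.053), without both that library and WT replicate 1 (-0.56, adjusted p = 0.242) and with stromal-marker size factors (-0.36, adjusted p = 0.198).

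Of 7 genes known to respond to Hoxa10 or Hoxa11 in the uterus 6 were tested, 2 were higher and 2 lower (31.1% of all genes tested were called). Emx2, a homeobox gene repressed by Hoxa10, had 507.2 to 788 normalized counts in WT and 996.5 to 1086 in Pbrm1 cKO (log2 fold change 0.63, DESeq2 adjusted p = 0.000597). Lif, the cytokine that the mouse uterus needs for implantation, was higher as well (2.40, adjusted p = 1.78e-22). Fkbp4, a cochaperone of the progesterone receptor, had 4312 to 5344 normalized counts in WT and 2665 to 2854 in Pbrm1 cKO (-0.80, adjusted p = 5.73e-13). Itgb3, an integrin gene induced by Hoxa10, had a log2 fold change of 0.34 and was not called (adjusted p = 0.119).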

How the data were processed

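RNA-seq was done on 3 WT and 3 Pbrm1 cKO preparations. Per the file header and the study's methods, cutadapt trimming and HISAT2 alignment (GRCm38/mm10, single-end reads) were followed by reverse-stranded counting over GENCODE release 18 genes in featureCounts 1.6.4. The deposited values are the authors' raw counts per gene and library, not normalized. The labels describe a total RNA kit and the methods poly(A) selection, so the RNA classes captured are not settled. Reads that overlap more than 1 gene on a strand are left out of the counts. Gene names came from GENCODE release 21 (54079 of 54232 genes).

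Pbrm1 cKO was compared with WT over all genes with the Wald test of DESeq2 1.42.0 under R 4.3.3, with its default scaling and independent filtering, without covariates, at a Benjamini-Hochberg threshold of 0.05. Normalized counts are those of DESeq2, and log2 fold changes are unshrunken. edgeR 4.0.16 and limma 3.58.1 were alternatives. The default DESeq2 fit, edgeR, limma voom and the length correction were run on simulated data first, and the other settings were not.

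Members and lists were chosen with earlier results of these data known. Values in every library are given for members past the threshold or with a mean of at least 100 normalized counts. From other lists at most the 4 most changed genes with a mean of at least 50 are named, plus defining markers. Evx1, Evx2, Hoxa5, Hoxa13, Hoxc8 and Hoxc11 were named after their values were seen. Settings tried were other scalings, filters, thresholds, a length correction, a replicate block and leaving out libraries. Floors cover counting error only, whereas the 95% intervals of log2 fold changes are Wald intervals that include the spread between libraries. Genes that these rules would name but that are missing from the text are not reported here.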

Additional observations from a re-analysis of the deposited data

How the results depend on the processing

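The numbers of Hox genes called higher and lower (1 and 5) were the same with TMM factors and total counts. The 1 gene called higher was lost (0) with edgeR, upper-quartile factors, no independent filtering, a mean count of at least 10, an adjusted p of 0.01, the test against a log2 fold change of 0.58 (run at an adjusted p of 0.1, so that 2 choices changed) and both WT replicate 1 and Pbrm1 cKO replicate 2 left out. With both left out, 2 genes were lower, and the test against 0.58 at an adjusted p of 0.1 left 0. With limma voom, and without WT replicate 1, the count of 1 higher was Hoxd9 and not Hoxc6. Leaving out each library gave 0 to 1 higher and 4 to 6 lower. With stromal-marker size factors, an alternative chosen after seeing the data as was leaving out both libraries, 3 were higher and 1 lower, and over all genes 6958 were higher and 961 lower. Over all genes the test against 0.58 at an adjusted p of 0.1 called 699 higher and 563 lower, leaving out both libraries called 1638 lower, and leaving out each library gave 1928 to 2915 higher and 1806 to 2648 lower.

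The median log2 fold change of the tested Hox genes (0.09) was -0.35 with edgeR, -0.34 with limma voom, -0.36 with a mean count of at least 10, -0.18 with both libraries left out and 0.49 with stromal-marker size factors, and ranged from -0.17 to 0.29 when 1 library was left out. The settings with fewer tested genes removed low-count members. Stromal-marker size factors moved the median of tested genes with a mean of at least 10 counts by 0.395. The named genes and list members that then changed sign and passed the threshold under either scaling were Hoxd8 (0.040), Psip1 (0.11), Rnf2 (0.16), Vim (0.13), Pbx2 (0.35), Men1 (0.36), Bmi1 (0.32), Nr2f2 (0.38), Hibadh (0.39), Copz1 (0.36) and Lnpk (0.39). Of the Hox genes not called under either, Hoxd10 (0.11) and Hoxb9 (0.15) also changed sign.

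No pairing by replicate number was found, as deviations of same-numbered libraries correlated across genes at 0.15, -0.12 and 0.03. Differently numbered libraries reached -0.14 and 0.17, and with 3 libraries per group this check cannot exclude pairing. With the replicate block, 0 Hox genes were higher and 4 lower, and Hoxd8 had an adjusted p of 0.0696 with DESeq2. Members with few counts are limited by depth, at a floor of 0.164 to 0.226 CPM.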
